A study of Mus musculus with 9 samples.

Results

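The genes described here code for matrix metalloproteases (MMPs), ADAM proteases, ADAMTS proteases, ADAMTS-like proteins and the tissue inhibitors of metalloproteases (TIMPs). They were chosen by symbol and by a mean level of at least 0.5 over the 9 libraries. This left 46 of the 26202 genes measured. The rule uses no difference between groups, but it was set with earlier results of these data known. The symbol pattern was met by 85 genes, and 39 of them lay below the level. The 46 were 10 of 23 MMP genes, 13 of 34 ADAM genes, 15 of 19 ADAMTS genes, all 5 ADAMTS-like genes and 3 of 4 TIMP genes. Just inside the limit were Adam32 (0.564) and Mmp15 (0.774), and just outside it Mmp23 (0.211) and Adam1b (0.209).

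Messenger RNA was sequenced from ATDC5 cells, a mouse chondrogenic line that passes through stages of cartilage formation in culture. All groups shared the culture medium, DMEM/F-12 with serum, to which insulin-transferrin-selenium, ascorbate and beta-glycerophosphate were added for the treatments. The groups were control, acetate and ethanol, with 3 libraries each, and the series asks whether acetate, to which cells oxidise ethanol, could carry effects of ethanol on chondrocyte differentiation. Doses, times and the treatment of the controls are not given in the sources used here. The labels do not say that replicates were separate cultures, so p-values measure the spread between these libraries, which may be technical. In bulk RNA of this kind, fewer cells of a type and less RNA per cell cannot be told apart.

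MMPs and ADAMTS enzymes are zinc proteases that are secreted or held at the cell surface and that cut collagens, proteoglycans and other matrix proteins. ADAM proteases are mostly membrane proteins that release growth factors, receptors and cytokines from the cell surface. TIMPs bind and block the active site of these enzymes. In cartilage, collagenases such as MMP13 and aggrecanases such as ADAMTS4 and ADAMTS5 are known for matrix turnover in the growth plate and for matrix loss in osteoarthritis.

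Levels are given as CPM (read counts scaled to library size, here with TMM factors). Libraries held 28.7 to 41.9 M recovered reads, and 1 read was worth 0.0231 to 0.0348 CPM. Fold changes are log2 differences of CPM plus 1, a scale on which low genes change by less than their CPM, with the standard error and the Benjamini-Hochberg adjusted p of limma over 12868 genes. A gene is said to rise or fall where the adjusted p was under 0.05. Of the 46 genes, 43 had a mean of at least 1 CPM and were tested. All 10 chondrocyte markers were at or above 1 CPM, with sums of 11654 to 15175 CPM in control, 6173 to 6868 in acetate and 5559.5 to 6958 in ethanol. Of other cell types, 0 of 6 muscle, 0 of 6 neutrophil, 0 of 6 epithelial, 2 of 10 macrophage and osteoclast, 2 of 6 endothelial and 1 of 6 adipocyte markers reached 1 CPM, and Myod1, Myog and S100a9 were at 0 in every library. The part of the lower chondrocyte marker sums in the results below was not tested.

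Acetate replicate 2 was unlike the other libraries. In it, 1622 genes differed by more than 2 times from the other acetate libraries, 1588 of them downward, and the deviation followed the GC content of transcripts (Pearson r = 0.83 across 12584 genes, which are not independent replicates). The metalloprotease genes showed the same relation, with r = 0.88 across the 43 tested genes, given as a description. All 7 genes under 45% GC were lower in acetate replicate 2, with a median difference of -0.63 on the log2 scale, and all 13 genes of at least 55% GC were higher, with a median of 0.42. Adam10 (42.1% GC) stood at 92.2 CPM in that library, beside 222 and 201 in the other acetate libraries. The library also widens the estimate of the spread that all 3 comparisons share, so results are given with and without it. Removing each library's trend with GC content is 1 of the 23 alternatives.

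**Figure D1:**
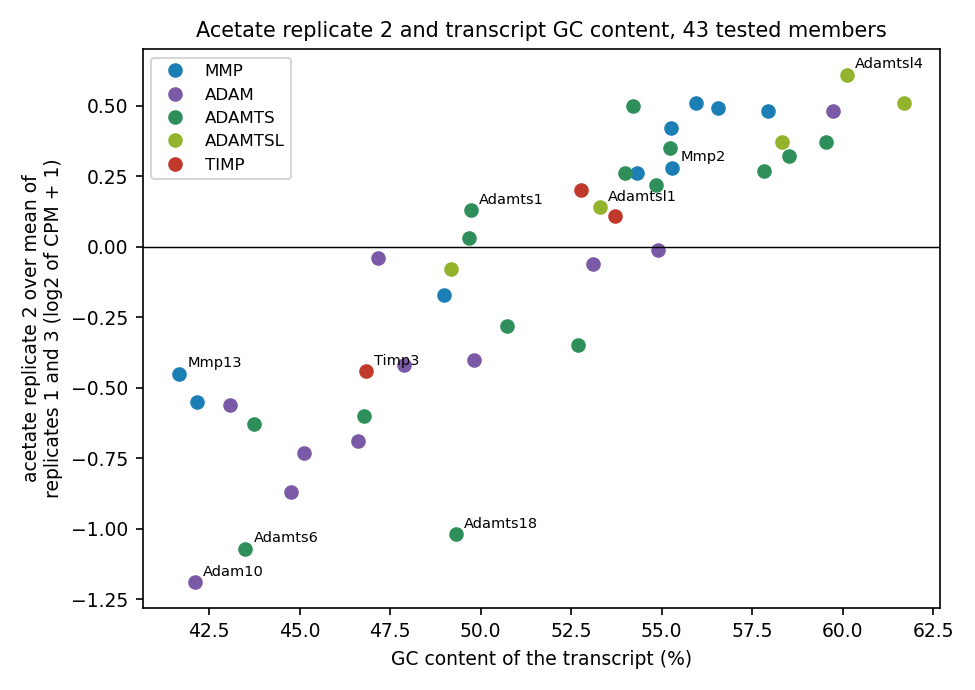
Deviation of acetate replicate 2 from the mean of the other acetate libraries (vertical axis, log2 of CPM plus 1) against the GC content of the transcript (horizontal axis, percent) for the 43 tested genes, coloured by family. Genes of low GC content such as Adam10 lie below 0 and genes of at least 55% GC lie above 0.

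Promoter windows are shown for the genes that passed the threshold in any comparison and that had an entry, because these are the genes the results turn on. RefSeq promoters on GRCm38.p6 were matched for 28 of the 46 genes, and the 250 bases before the annotated start were searched on both strands. Capitals mark every match to 6 motifs. They were the AP-1 motif TGANTCA, the RUNX motif TGTGGT, the TATA box as TATAAA, the hypoxia response core ACGTG, the GC box GGGCGG and a loose NF-kB motif of 3 G and a pair of C with any 5 bases between them. The windows are Mmp13 (chr9:7272264-7272513, plus strand), Adamts1 (chr16:85803114-85803363, minus strand), Adamtsl2 (chr2:27079129-27079378, plus strand) and Adamts9 (chr6:92943535-92943784, minus strand), each printed 5′ to 3′ along its gene.
Mmp13: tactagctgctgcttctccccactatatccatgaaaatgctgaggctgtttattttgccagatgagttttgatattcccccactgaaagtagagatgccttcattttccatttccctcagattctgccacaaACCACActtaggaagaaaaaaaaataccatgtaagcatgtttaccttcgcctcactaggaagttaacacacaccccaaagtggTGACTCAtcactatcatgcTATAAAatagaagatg
Adamts1: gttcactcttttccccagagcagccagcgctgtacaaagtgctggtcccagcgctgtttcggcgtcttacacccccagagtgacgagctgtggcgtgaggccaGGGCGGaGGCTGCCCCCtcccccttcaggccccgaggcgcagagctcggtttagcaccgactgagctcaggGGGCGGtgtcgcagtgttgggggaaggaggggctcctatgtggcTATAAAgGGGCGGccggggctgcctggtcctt
Adamtsl2: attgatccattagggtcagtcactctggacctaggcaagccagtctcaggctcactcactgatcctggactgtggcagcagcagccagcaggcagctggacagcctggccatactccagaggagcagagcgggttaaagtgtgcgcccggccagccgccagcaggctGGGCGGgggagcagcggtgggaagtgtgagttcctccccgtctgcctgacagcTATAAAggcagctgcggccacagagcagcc
Adamts9: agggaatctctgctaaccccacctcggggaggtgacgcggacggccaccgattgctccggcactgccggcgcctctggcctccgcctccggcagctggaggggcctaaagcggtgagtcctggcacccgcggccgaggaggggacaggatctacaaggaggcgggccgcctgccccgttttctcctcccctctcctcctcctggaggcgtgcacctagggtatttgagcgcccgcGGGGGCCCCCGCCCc

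In the Mmp13 window the TATA match lay 16 to 11 bases before the start, the AP-1 match 35 to 29 bases and the RUNX match, on the other strand, 118 to 113 bases before it. Adamts1 held a TATA match at 32 to 27 bases, 3 GC boxes and 1 NF-kB match, and Adamtsl2 a TATA match at 30 to 25 bases and 1 GC box. Adamts9 held a GC box that overlaps an NF-kB match. The 28 genes had 30 windows, as Adam19 had 3. Of the 30 windows, TATA was found in 3, AP-1 in 2, RUNX in 5, the hypoxia response core in 8, the GC box in 21 and NF-kB in 19. Over all 32536 promoter windows of the same length, the shares were 12.3%, 6.73%, 14.0%, 16.7%, 33.0% and 45.98%, in that order. Such matches describe letters and not bound sites. Adamtsl1, Mmp2 and Mmp19 had no entry.

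Levels of different genes were compared per kilobase of the longest coding transcript. In control libraries the inhibitors led: Timp3 stood at 349 ± 29.5 CPM per kilobase (SD, n = 3), Timp1 at 244 ± 38.9 and Timp2 at 237 ± 3.66. Timp1 and Timp2 did not differ beyond their spread, and neither did Timp1 and Mmp2. The most abundant proteases were the gelatinase gene Mmp2 at 229 ± 9.19 and Mmp14, which codes for the membrane-type MMP that activates pro-MMP2 together with TIMP2, at 173 ± 11.2. They were followed by Adam10 at 43.3 ± 1.35, Adamts1 at 38.9 ± 4.30, Adam9 at 31.1 ± 2.97, Adam15 at 16.8 ± 0.854 and Adamtsl1 at 15.2 ± 1.05. Adam10 and Adamts1 overlapped at 1 SD around their means.

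**Figure D2:**
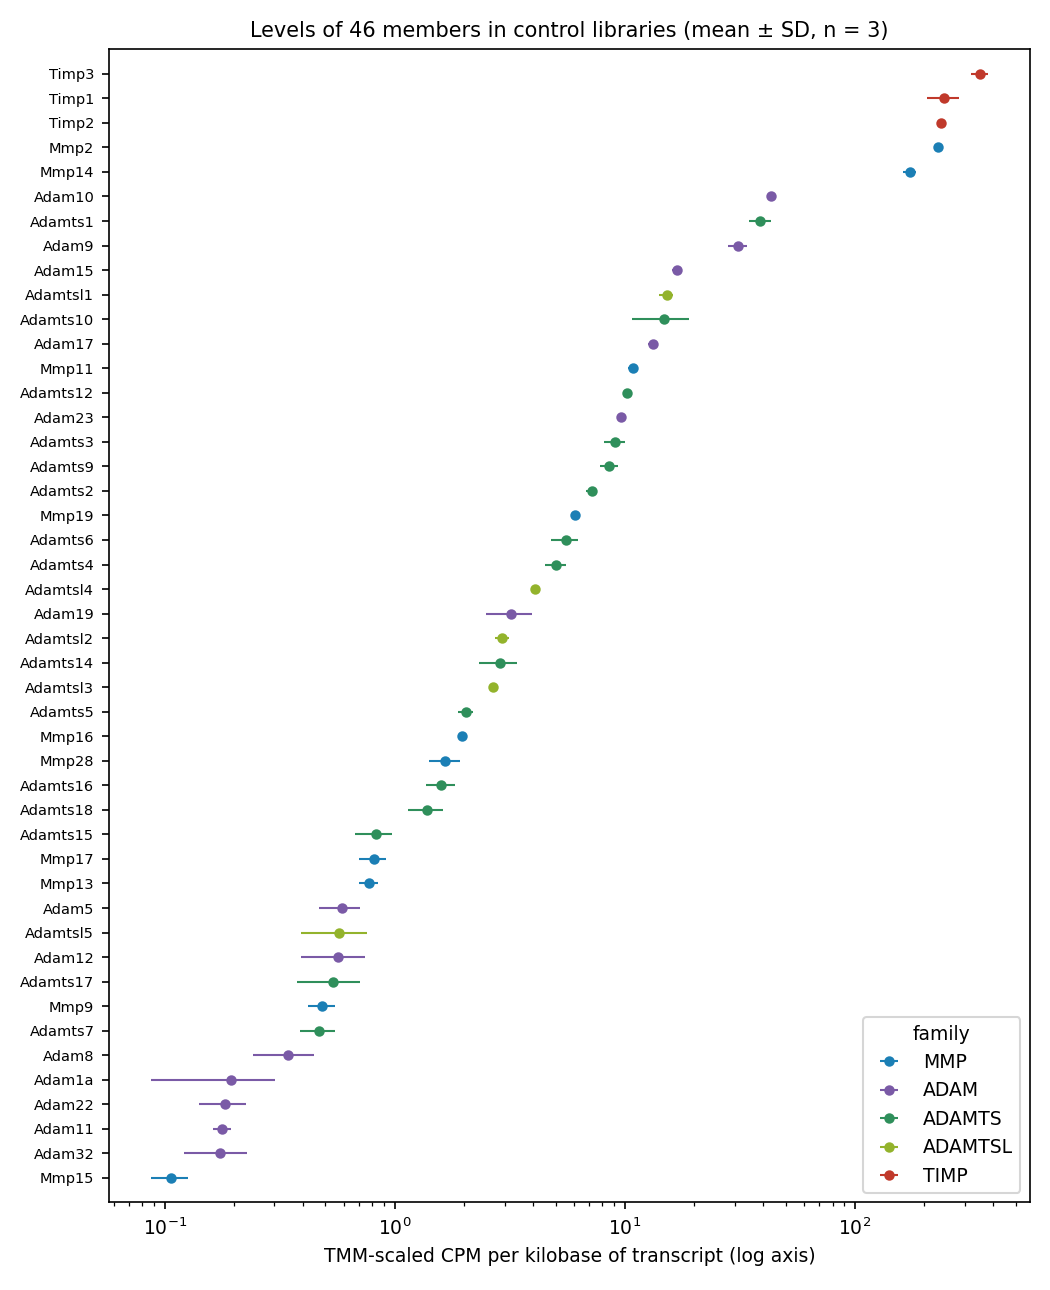
Level of each of the 46 genes in control libraries (horizontal log axis, TMM-scaled CPM per kilobase of transcript, mean ± SD, n = 3), coloured by family. The 3 TIMP genes, Mmp2 and Mmp14 lie above all other genes.

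Many enzymes known from cartilage disease were at or near the floor. Mmp3, which codes for stromelysin 1, had 0 to 8 reads per library, and Timp4 had 0 to 7. Also below the level were the collagenase genes Mmp1a, Mmp1b and Mmp8, and Mmp7, Mmp10 and Mmp12. The 3 genes kept by the rule but under 1 CPM were Adam11, Adam32 and Mmp15. In a fit that took them in with a filter at 0.5 CPM, none passed (adjusted p of 0.42, 0.60 and 0.55 for acetate against control, and 1.0, 0.71 and 0.076 for ethanol against control, in that order).

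With ethanol, 3 of the 43 tested genes fell and none rose against control: Adamtsl1, Adamts1 and Mmp13. Over all genes, 2.45% fell and 1.48% rose, and the shares were not tested against each other. The median log2 fold change of the 43 was -0.08, beside 0.00 over all genes, and 11 of the 43 had an unadjusted p under 0.05, beside 19.0% of all genes. With the replicate number as a block, 4 fell and 1 rose, as Mmp2 (adjusted p = 0.036) and Mmp9 (adjusted p = 0.043) were added, while 5.07% of all genes fell and 3.27% rose. Without acetate replicate 2, which enters this comparison only through the shared spread, 10 fell and 3 rose, beside 11.3% and 10.2% of all genes.

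With acetate, 1 of the 43 genes fell against control, Mmp13, and none rose, beside 0.497% and 0.505% of all genes. The median was 0.05, beside -0.01 over all genes, and 11 of the 43 had an unadjusted p under 0.05, beside 14.6% of all genes. With the replicate block the call was again Mmp13 alone, beside 0.917% of all genes lower and 1.36% higher. Without acetate replicate 2, 2 fell, Mmp13 and Adamts12, and none rose, beside 1.53% and 1.95% of all genes.

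Set directly against ethanol, acetate libraries had 5 of the 43 genes higher (Adamtsl1, Adamts1, Adamtsl2, Adamts9 and Mmp2) and 1 lower (Mmp19), beside 2.84% and 0.886% of all genes. The median was 0.07, beside -0.01 over all genes, and 18 of the 43 had an unadjusted p under 0.05, beside 21.1% of all genes. With the replicate block the same 6 passed, beside 4.67% of all genes higher and 1.73% lower. Without acetate replicate 2, 8 were higher and 2 lower, beside 5.72% and 2.89%. The 3 comparisons share their groups pairwise, so their results are not independent.

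**Figure D3:**
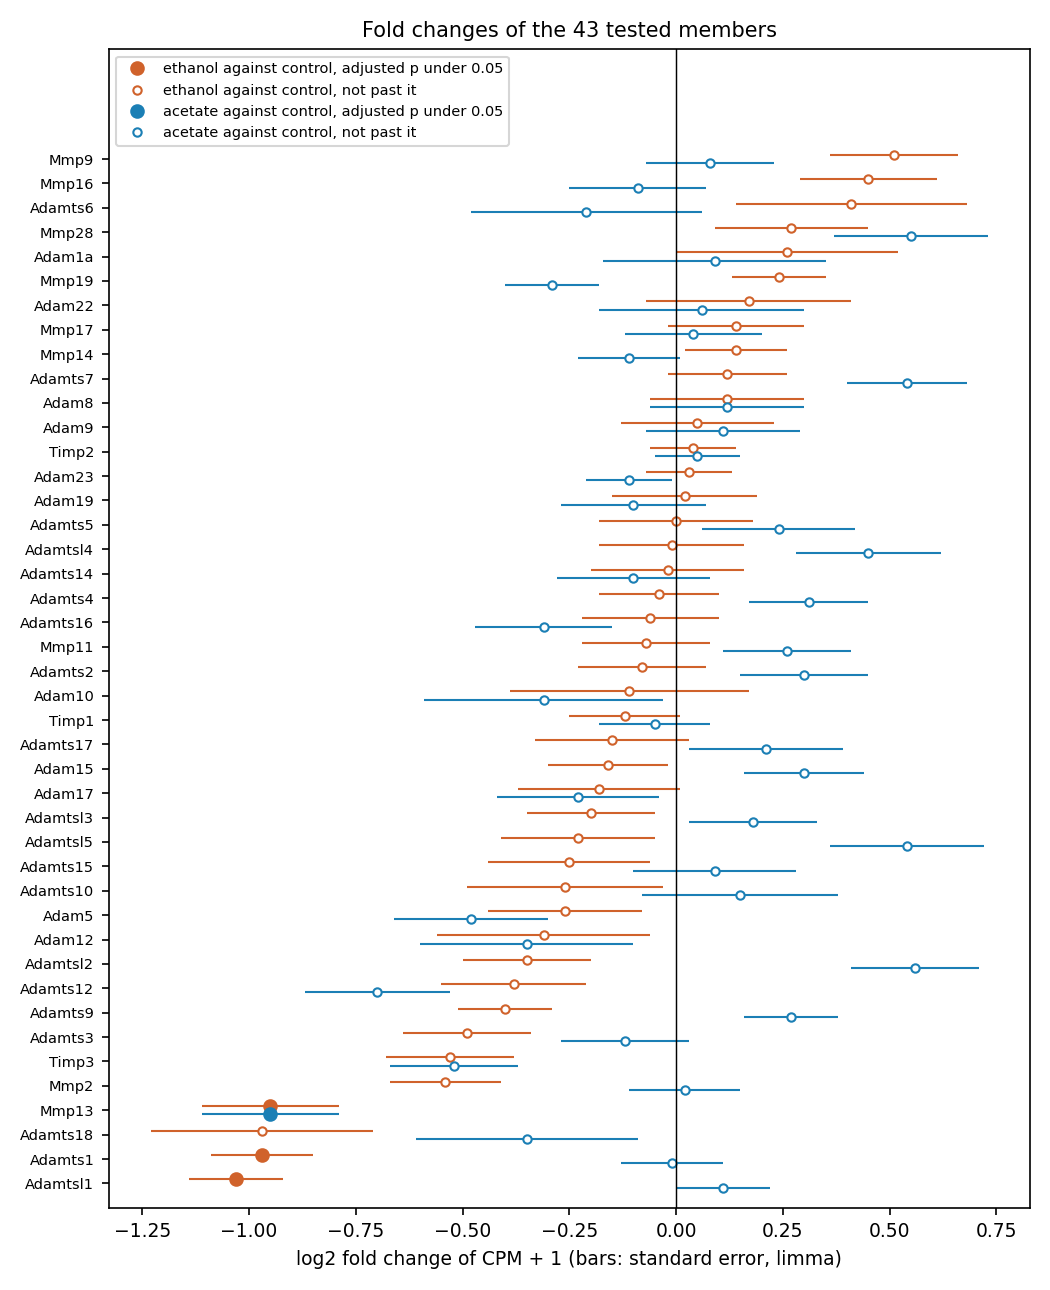
Log2 fold change of CPM plus 1 (horizontal axis, with the standard error from limma) for the 43 tested genes, ordered by ethanol against control (orange), with acetate against control (blue). Filled points passed an adjusted p of 0.05: Adamtsl1, Adamts1 and Mmp13 with ethanol and Mmp13 with acetate.

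Among collagenases, Mmp13 (chr9:7272514-7283331 on GRCm38), the main collagenase of hypertrophic cartilage, was measured from only 10 to 76 reads per library. It stood at 1.98, 2.30 and 1.93 CPM in control, 0.965, 0.291 and 0.569 in acetate and 0.567, 0.433 and 0.761 in ethanol. All 3 control libraries lay above all acetate and ethanol libraries, and acetate and ethanol overlapped. The log2 fold change was -0.95 ± 0.16, adjusted p = 0.032 with acetate and -0.95 ± 0.16, adjusted p = 0.014 with ethanol, and the direct difference was 0.00 ± 0.16, adjusted p = 0.99. Mmp13 had the lowest GC content of the 46 genes (41.7%), and these sizes moved with the fit. With the GC trend removed they were -0.58 ± 0.19, -0.98 ± 0.19 and 0.40 ± 0.19 (adjusted p = 0.18 for the direct difference). Without acetate replicate 2 they were -0.80, -0.95 and 0.15, in the same order. The fall with acetate was past the threshold in 10 of 22 alternatives. It missed the threshold with a pseudocount of 0.1 (adjusted p = 0.061), with voom on recovered reads (0.056), with only the 6 libraries compared (0.14), with the replicate block and the GC trend removed (0.057), without any 1 control library (adjusted p = 0.16, 0.14 and 0.11), without acetate replicate 3 (0.097), without any 1 ethanol library (0.069, 0.065 and 0.061) and with the GC trend removed (0.11). The fall with ethanol held in 17 of 22, and missed it without control replicates 1, 2 or 3 (0.072, 0.068 and 0.052) and ethanol replicates 1 or 2 (0.057 and 0.087).

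Among gelatinases, Mmp2 (chr8:92827291-92853420), which degrades denatured collagen and basement membrane, stood at 733, 677 and 708 CPM in control, 740.3, 818 and 606 in acetate and 488, 501 and 468 in ethanol. The 3 ethanol libraries lay below all others, and control and acetate overlapped. The difference between acetate and ethanol passed (0.56 ± 0.13, adjusted p = 0.044), and was lost with a filter at 5 CPM (adjusted p = 0.051), with no filter (0.080), with only the 6 libraries compared (0.16), without any 1 control library (0.090, 0.081 and 0.080), without acetate replicate 1 (0.097) and without any 1 ethanol library (0.15, 0.16 and 0.18). Ethanol against control was -0.54 ± 0.13, adjusted p = 0.051, and 0.0033 without acetate replicate 2. Mmp9, the other gelatinase, was low, at 1.73, 1.56 and 1.32 CPM in control, 1.65, 2.27 and 1.22 in acetate and 2.72, 2.77 and 2.35 in ethanol. Its ethanol libraries lay above all others, with 0.51 ± 0.15, adjusted p = 0.11 against control and an adjusted p of 0.015 without acetate replicate 2.

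Among membrane-type MMPs, Mmp14 stood at 570.3, 521 and 592 CPM in control, 489, 585 and 486 in acetate and 567, 651 and 634 in ethanol. Its groups overlapped in every comparison, with -0.11 ± 0.12, adjusted p = 0.61 for acetate and 0.14 ± 0.12, adjusted p = 0.6 for ethanol against control. Acetate against ethanol was -0.25 ± 0.12, adjusted p = 0.27, and -0.34 with an adjusted p of 0.054 without acetate replicate 2. That difference passed in 3 of 23 alternatives, among them the fit with the GC trend removed (-0.39, adjusted p = 0.0084). Mmp16, another membrane-type MMP gene, was at 9.84 ± 0.177 CPM in control and 13.8 ± 1.08 in ethanol (SD, n = 3), with 0.45 ± 0.16, adjusted p = 0.18, and passed in 4 of 23 alternatives, among them the fit without acetate replicate 2 (0.011). As a share of the summed MMP level per kilobase, Mmp2 made up 53.9% in control, 55.8% in acetate and 42.3% in ethanol, and Mmp14 40.7%, 38.4% and 51.1%.

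Of the remaining MMP genes, Mmp19 stood at 19.9, 20.4 and 21.4 CPM in control, 15.99, 15.4 and 18.7 in acetate and 23.1, 24.3 and 26.2 in ethanol. No groups overlapped, with acetate lowest and ethanol highest. Acetate against ethanol passed (-0.53 ± 0.11, adjusted p = 0.033), and neither group passed against control (-0.29 and 0.24). The call was lost with only the 6 libraries compared (adjusted p = 0.14), without any 1 control library (0.077, 0.069 and 0.056), without acetate replicate 1 (0.082) and without any 1 ethanol library (0.096, 0.14 and 0.16). Exons of Mmp19 share 789 bases in total with exons of Tmem198b on the opposite strand (17.9 CPM). Since the strand setting of the counting was not given, the value of Mmp19 is uncertain. Mmp11, Mmp17 and Mmp28 did not pass, with log2 fold changes from -0.07 to 0.55 against control.

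None of the 11 tested ADAM genes passed in any comparison, with or without acetate replicate 2, and none passed in more than 3 alternatives of any comparison. Adam10 and Adam17, the main sheddases of Notch receptors, growth factors and TNF, stood at 199 ± 6.21 and 59.00 ± 2.80 CPM in control and at 185 ± 17.3 and 51.9 ± 4.21 in ethanol (SD, n = 3). Ethanol against control was -0.11 ± 0.28, adjusted p = 0.9 for Adam10 and -0.18 ± 0.19, adjusted p = 0.67 for Adam17. In acetate the level of Adam10 was 172 ± 69.7, and 212 without replicate 2. Adam9 and Adam15, also catalytic ADAMs, had log2 fold changes of 0.05 and -0.16 with ethanol and 0.11 and 0.30 with acetate. The other 7 ranged from -0.48 to 0.26 against control. Adam1a shares exon sequence with Mapkapk5 on the same strand (67.0 CPM), so its value of 1.09 CPM is uncertain.

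Among the proteoglycan-cleaving ADAMTS enzymes, Adamts1 (chr16:85793827-85803113), which cuts versican and aggrecan, stood at 183, 213 and 173 CPM in control, 186, 199 and 179 in acetate and 98.1, 100.5 and 90.2 in ethanol. Every ethanol library lay below every other library, and control and acetate overlapped. The log2 fold change was -0.97 ± 0.12, adjusted p = 0.0037 for ethanol against control, -0.01 ± 0.12, adjusted p = 0.97 for acetate against control and 0.96 ± 0.12, adjusted p = 0.0036 for acetate against ethanol. Both calls held in all 23 alternatives, the removal of the GC trend among them. Adamts5, the aggrecanase gene that lies 53.1 kilobases from Adamts1 on chromosome 16, stood at 21.1, 21.1 and 23.9 CPM in control, 28.6, 19.3 and 32.3 in acetate and 21.5, 19.96 and 24.9 in ethanol, with overlap between all groups and 0.00 ± 0.18, adjusted p = 1 for ethanol against control. Acetate against control was 0.24 ± 0.18, adjusted p = 0.49, and passed in 3 of 23 alternatives, among them the fit with the GC trend removed (0.49, adjusted p = 0.024).

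Adamts4, the other classical aggrecanase gene, stood at 22.4, 19.7 and 24.2 CPM in control, 24.1, 32.8 and 26.7 in acetate and 19.6, 23.1 and 21.6 in ethanol, with 0.31 ± 0.14, adjusted p = 0.34 for acetate and -0.04 ± 0.14, adjusted p = 0.92 for ethanol against control. The summed CPM of Adamts4 and Adamts5 was 43.5, 40.8 and 48.2 in control, 52.7, 52.1 and 59.1 in acetate and 41.1, 43.04 and 46.5 in ethanol. Acan, the gene of their substrate aggrecan, was at 1119 ± 233, 588 ± 13.9 and 589 ± 100.3 CPM (SD, n = 3) in control, acetate and ethanol.

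Adamts9, a secreted versicanase gene, stood at 64.4, 66.1 and 75.7 CPM in control, 81.5, 84.2 and 83.4 in acetate and 50.96, 47.8 and 57.3 in ethanol. No groups overlapped, with ethanol lowest and acetate highest. Acetate against ethanol passed (0.67 ± 0.11, adjusted p = 0.013) in the full fit and in 20 of 23 alternatives, and fell short with only the 6 libraries compared (adjusted p = 0.067) or when ethanol replicate 1 or 2 was left out (0.066 and 0.087). Ethanol against control was -0.40 ± 0.11, adjusted p = 0.092, and 0.014 without acetate replicate 2. Adamts15 did not pass (-0.25 with ethanol).

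Among the other ADAMTS genes, several missed the threshold with all libraries and passed without acetate replicate 2. With ethanol these were Adamts18 (-0.97, adjusted p = 0.075 with and 0.00095 without it), the procollagen N-propeptidase gene Adamts3 (-0.49, 0.12 and 0.021), Adamts12, whose product cuts COMP (-0.38, 0.27 and 0.011), and, upward, Adamts6 (0.41, 0.45 and 0.026). Adamts12 stood at 87.1, 84.8 and 91.3 CPM in control, 66.5, 40.4 and 57.3 in acetate and 67.95, 62.98 and 71.4 in ethanol. Its control libraries lay above all others, and acetate against control was -0.70 ± 0.17, adjusted p = 0.095, or -0.50 with an adjusted p of 0.019 without acetate replicate 2. Acetate against ethanol likewise missed the threshold with that library and passed without it for Adamts18 (0.96, 0.003) and Adamts5 (0.45, 0.038). Adamts2, Adamts7, Adamts10, Adamts14, Adamts16 and Adamts17 did not pass in either fit.

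The ADAMTS-like proteins lack a protease domain and bind the matrix. Adamtsl1 (chr4:85514172-86428385) stood at 123, 109.6 and 125 CPM in control, 128, 137 and 119.9 in acetate and 60.7, 53.7 and 58.6 in ethanol. Every ethanol library lay below every other library, and control and acetate overlapped. The log2 fold change was -1.03 ± 0.11, adjusted p = 0.0021 for ethanol against control, 0.11 ± 0.11, adjusted p = 0.59 for acetate against control and 1.14 ± 0.11, adjusted p = 0.0013 for acetate against ethanol. Both calls held in all 23 alternatives.

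Adamtsl2, a partner of fibrillin, stood at 11.3, 10.5 and 9.88 CPM in control, 15.7, 19.2 and 13.7 in acetate and 8.82, 8.66 and 6.97 in ethanol. No groups overlapped, with ethanol lowest and acetate highest, and acetate replicate 2 had the highest value. Acetate against ethanol passed (0.90 ± 0.15, adjusted p = 0.011), with 0.78 and an adjusted p of 0.0043 without that library, and fell short with only the 6 libraries compared (0.065) or when ethanol replicate 2 or 3 was left out (0.053 and 0.057). Against control it did not pass with acetate (0.56) or ethanol (-0.35, adjusted p = 0.049 without acetate replicate 2). Adamtsl3, Adamtsl4 and Adamtsl5 had differences of 0.38, 0.46 and 0.77 between acetate and ethanol and did not pass. Adamtsl5 passed without acetate replicate 2 (0.049).

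**Figure D4:**
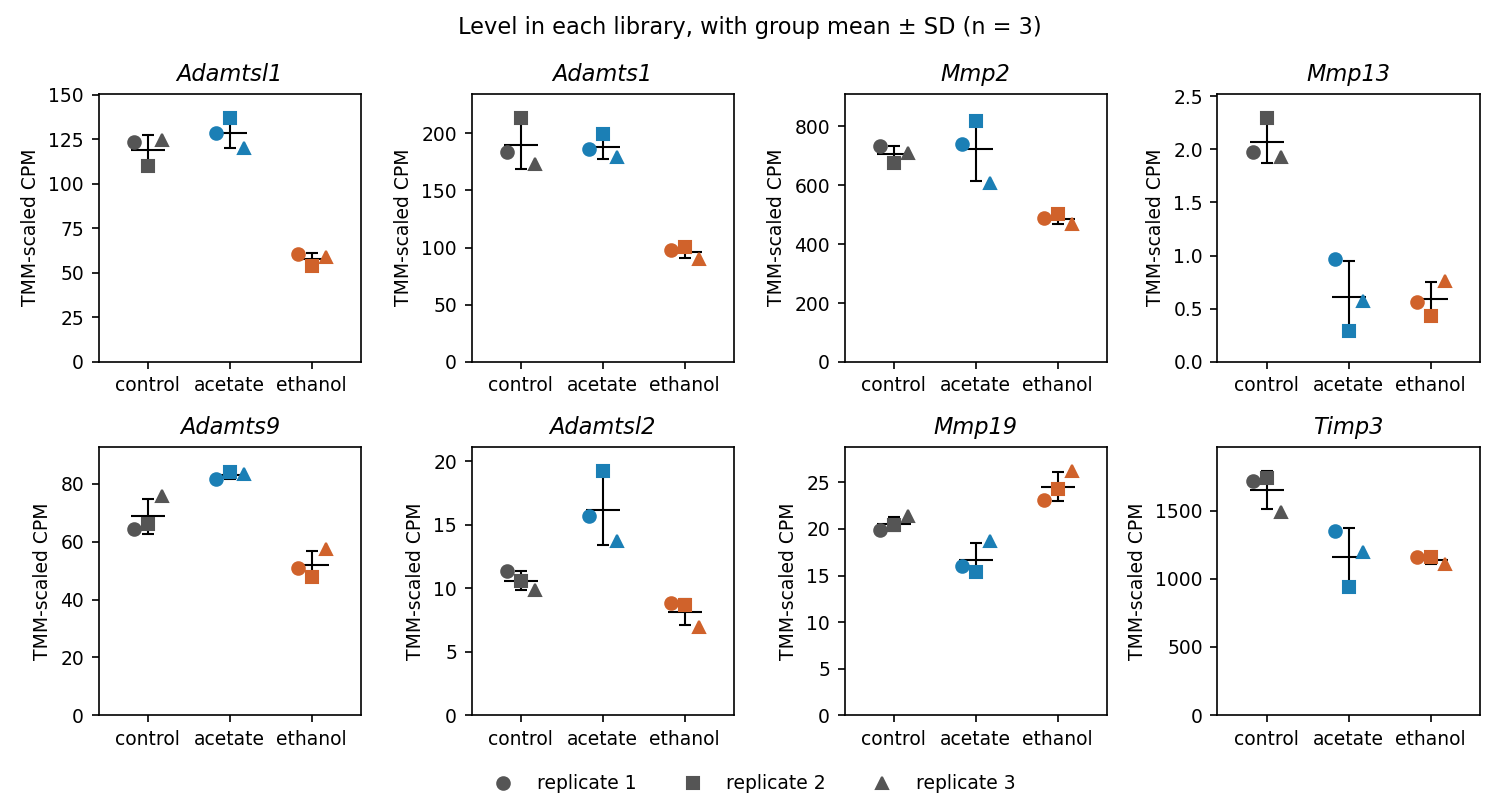
Level in each of the 9 libraries (vertical axes, TMM-scaled CPM from 0) of 8 genes, with the mean ± SD of each group (n = 3) and a marker shape per replicate number. Ethanol libraries lie lowest for Adamtsl1, Adamts1, Mmp2, Adamts9 and Adamtsl2, and control libraries lie highest for Mmp13 and Timp3.

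None of the 3 TIMP genes passed in the full fit. Timp3, whose product is bound to the matrix and also blocks ADAM and ADAMTS enzymes, stood at 1718, 1742 and 1489 CPM in control, 1353, 939.6 and 1193 in acetate and 1160.1, 1158 and 1105 in ethanol. All control libraries lay above all acetate and ethanol libraries, with -0.52 ± 0.15, adjusted p = 0.15 for acetate and -0.53 ± 0.15, adjusted p = 0.085 for ethanol. Without acetate replicate 2, ethanol against control passed (0.0052) and acetate did not (-0.37, 0.099). Acetate against control passed in 3 of 23 alternatives, with the GC trend removed (-0.43, adjusted p = 0.034), with that and the replicate block (0.0048), and with the block and acetate replicate 2 left out (-0.35, 0.0024). Timp1 and Timp2 had log2 fold changes of -0.12 and 0.04 with ethanol and -0.05 and 0.05 with acetate, with overlap between all groups.

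Summed per kilobase, the 15 ADAMTS genes reached 104, 108 and 115 in control, 105, 113 and 113 in acetate and 76.6, 79.9 and 84.5 in ethanol. The ADAMTS-like genes summed to 26.01, 24.1 and 26.2 in control, 29.2, 34.8 and 28.2 in acetate and 17.02, 15.7 and 16.5 in ethanol. In both sums every ethanol library lay below every other library, and Adamts1 and Adamtsl1 are the largest terms. The ratio of Mmp2 to Timp2 per kilobase was 0.989, 0.935 and 0.983 in control, 0.965, 1.03 and 0.859 in acetate and 0.651, 0.639 and 0.656 in ethanol. These sums and ratios are given as a description, with no test.

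**Figure D5:**
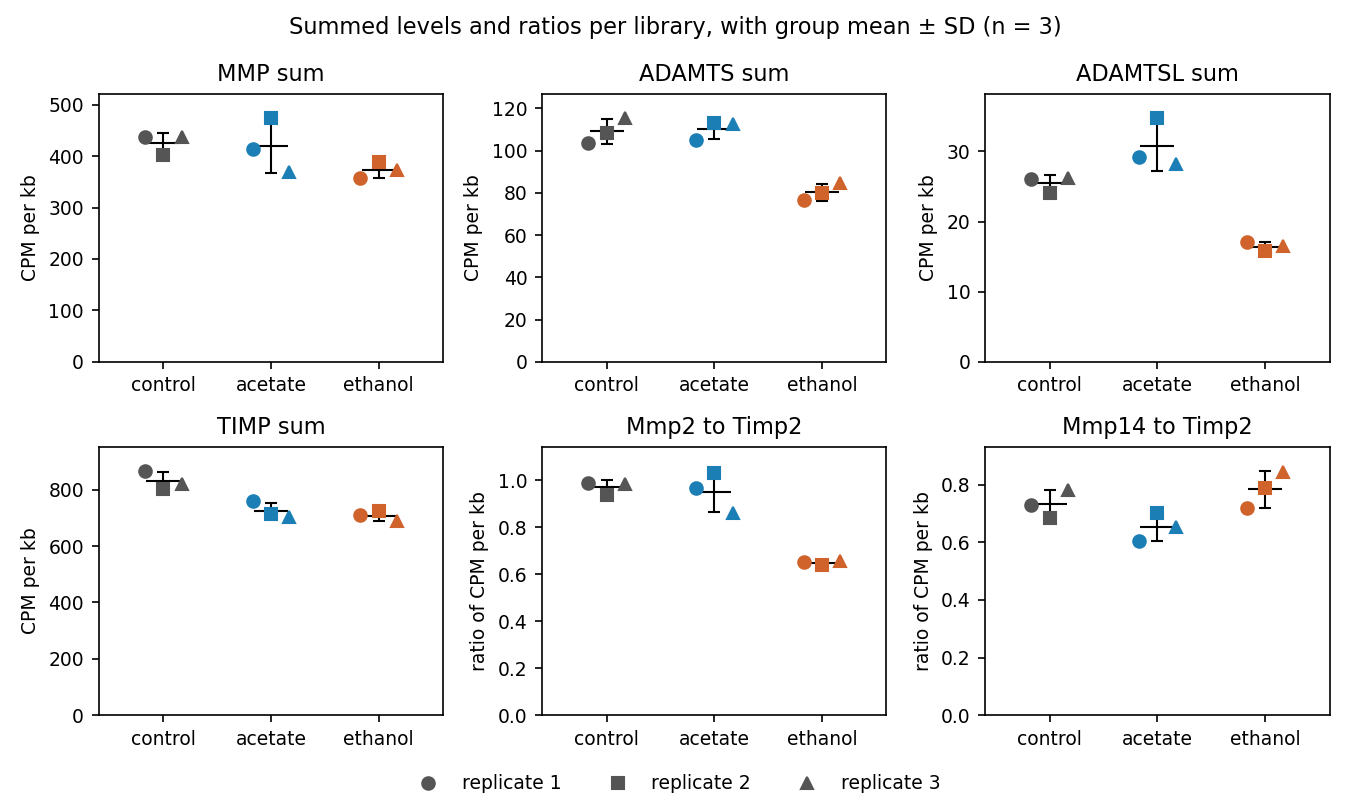
Summed level per kilobase of the MMP, ADAMTS, ADAMTS-like and TIMP genes, and the ratios of Mmp2 and Mmp14 to Timp2, in each library (vertical axes from 0, with the mean ± SD of each group, n = 3). The ethanol libraries lie lowest in the ADAMTS and ADAMTS-like sums and in the ratio of Mmp2 to Timp2.

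Other genes of the same system were read from 6 lists. Their counts are given over all libraries, then without acetate replicate 2 and with the replicate block where these differ. Over all genes tested, 2.45%, 11.3% and 5.07% fell with ethanol in these fits, in that order, and 1.48%, 10.2% and 3.27% rose. With acetate, 0.497%, 1.53% and 0.917% fell and 0.505%, 1.95% and 1.36% rose. Against ethanol, acetate libraries had 2.84%, 5.72% and 4.67% higher and 0.886%, 2.89% and 1.73% lower. The lists were not tested against these shares. Of 8 tested protease activators and serpins, 1 rose with ethanol, Plat, the tissue plasminogen activator gene (0.44 ± 0.10, adjusted p = 0.045), and 2 fell, the proprotein convertase gene Pcsk6 (-0.85 ± 0.14, adjusted p = 0.011) and Serpine2 (-0.67 ± 0.14, adjusted p = 0.033). Pcsk7 also rose without acetate replicate 2. Of 10 other inhibitors and clearance genes, 2 fell with ethanol, 7 without acetate replicate 2 and 4 with the block. Reck, a membrane-anchored inhibitor of MMPs, stood at 35.3, 34.2 and 34.6 CPM in control, 30.8, 29.6 and 28.1 in acetate and 19.8, 19.3 and 19.9 in ethanol, with -0.79 ± 0.10, adjusted p = 0.0038, and was higher in acetate than in ethanol (0.56 ± 0.10, adjusted p = 0.014). Cst3, the cystatin C gene, changed by -1.18 ± 0.20, adjusted p = 0.015. For acetate against control no gene of either list passed over all libraries or with the block, and 1 fell without acetate replicate 2, Pcolce2 (-0.53, adjusted p = 0.036). Higher in acetate than in ethanol were 1 gene of each list, Pcsk6 (0.69 ± 0.14, adjusted p = 0.026) and Reck. They were 2 and 3 without acetate replicate 2, with Serpine2 (adjusted p = 0.0044), Lrp1 (0.015) and Thbs2 (0.039) added, and with the block 2 and 4. The list medians with ethanol were -0.07 and -0.47, beside 0.00 over all genes.

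Of 13 tested other matrix-degrading enzymes, the hyaluronan-degrading gene Cemip rose with ethanol (0.73 ± 0.16, adjusted p = 0.038) and the heparanase gene Hpse fell (-0.63 ± 0.11, adjusted p = 0.015), with a list median of -0.25. With ethanol, 5 fell without acetate replicate 2 and 2 with the block. The serine protease gene Htra3 rose with acetate (1.02 ± 0.19, adjusted p = 0.047), and 5 of the list were higher in acetate than in ethanol (Htra3, Hpse, Pappa2, Htra1 and Ctsl). In both of those fits these same 5 were higher, and Cemip was lower. None of 8 sheddase partners passed over all libraries or with the block. Rhbdf2, which carries ADAM17 to the surface, had 0.77 ± 0.16, adjusted p = 0.06 with acetate and passed without acetate replicate 2 against control (0.012) and against ethanol (0.026); it was named after its values were seen.

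Of 16 tested protease substrates, 5 fell with ethanol (Comp, Col2a1, Dcn, Acan and Tgfa) and 3 rose (Fbn1, Hbegf and Notch1), with a list median of -0.33, and 2 fell with acetate (Col2a1 and Comp). With ethanol, 8 fell and 4 rose without acetate replicate 2, and 7 fell and 3 rose with the block. With acetate, 3 fell and 1 rose without that library, with Acan (-0.89, adjusted p = 0.028) and Notch1 (0.58, 0.010) added, and 4 fell and 1 rose with the block. Against ethanol, acetate libraries had Comp and Col1a1 higher and Fbn1 lower. Col1a1 did not pass without acetate replicate 2, and with the block 3 were higher and 2 lower. Comp changed by -1.88 ± 0.16, adjusted p = 0.0011 with ethanol and -0.97 ± 0.16, adjusted p = 0.031 with acetate. Of 17 tested upstream transcription factors and cytokines, Etv4 (1.30 ± 0.25, adjusted p = 0.025) and Il6 (1.25 ± 0.25, adjusted p = 0.03) rose with ethanol and Epas1, the HIF-2 alpha gene, fell (-0.88 ± 0.12, adjusted p = 0.0052). With ethanol, 6 rose and 1 fell without acetate replicate 2, and 4 rose and 1 fell with the block. With acetate none of the 17 passed over all libraries. Il6 (0.73, adjusted p = 0.0086) and Junb (0.57, 0.021) rose without acetate replicate 2, and with the block 3 rose (Etv4, Fosl1 and Junb). Epas1 was higher in acetate than in ethanol (0.75 ± 0.12, adjusted p = 0.01) in all 3 of these fits, and Il6 was lower without acetate replicate 2.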

How the data were processed

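The deposited table gives log2 values of 26202 genes in 9 libraries, on a TMM-normalised scale per the file name. Library preparation used a stranded mRNA kit from Illumina, per the labels' protocols. The submitters' processing notes name Partek, Bowtie2 2.2.5, STAR 2.7.8a and mm10, with no role or order; annotation, counting and its strand setting are not given in the sources used here. A treatment text among the labels concerns other material and was left aside.

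The floor of each library was subtracted from 2 to the power of the value, which gave TMM-scaled CPM. From the same floor, reads were recovered, and 85.6% to 87.2% of low values per library were whole within 0.02 read, so the values were not treated as counts. The test, limma 3.58.1 under R 4.3.3, ran on log2 of CPM plus a pseudocount of 1 for genes averaging 1 CPM or more. It fitted group means over all 9 libraries and moderated the variances along a trend with the mean, and p-values were adjusted by Benjamini-Hochberg. GENCODE M21 supplied transcript lengths and GC content by symbol (24919 genes matched). Tables used Python 3.11.15 with pandas 2.3.3, and figures matplotlib 3.10.9. Exons shared with other genes were looked up in the same annotation, and 1 such overlap is not reported here. The procedure was tested on simulated data that held no deviation with GC content and no replicate effect, so that test does not bear on either.

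Replicate numbers come from the labels. Same-numbered libraries deviated together for ethanol against control (correlations of 0.55, 0.36 and 0.67) and acetate against ethanol (0.15, 0.25 and 0.61), and less so for acetate against control (0.25, -0.10 and 0.41). The pairing therefore rests on the data and the numbers, not on a stated shared day.

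The genes and lists were chosen with earlier results of these data known. Genes were named where they passed the threshold in any comparison, with or without acetate replicate 2, or were among 13 set genes or the 10 highest per kilobase; of each list, up to 4 that passed were given with values. The alternatives covered the pseudocount, filter, scaling, variance model, replicate block, libraries fitted, GC trend, voom on recovered reads and each library left out. The promoter motifs were chosen after results were seen, and all 6 that were searched are given.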

Additional observations from a re-analysis of the deposited data

How the results depend on the processing

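The 10 calls named above kept their sign in all 228 fits of the alternatives that gave a value, and 187 of these fits kept the call. The count of the 43 genes past the threshold depended on the setting, and the share of all genes past it, given in brackets, moved as well. For acetate against control it was 1, and 0 with a pseudocount of 0.1 (0.839%), a filter at 5 CPM (0.476%), only the 6 libraries compared (0.155%) or voom on recovered reads (0.855%), 3 with the GC trend removed (6.18%), 14 with the replicate block and the GC trend removed (20.96%), and 12 with the replicate block and acetate replicate 2 left out (21.5%). Leaving out 1 library gave 0 to 2 (0% to 3.48%). For ethanol against control it was 3, and 5 with the replicate block (8.35%), 13 with only the 6 libraries compared (26.8%), 11 with the GC trend removed (18.2%), 18 with the replicate block and the GC trend removed (39.7%), 21 with the replicate block and acetate replicate 2 left out (50.2%), and 2 to 13 with 1 library left out (0.762% to 21.5%). For acetate against ethanol it was 6, and 2 with only the 6 libraries compared (0.832%), 11 with the GC trend removed (12.3%), 21 with that and the replicate block (33.9%), 25 with the replicate block and acetate replicate 2 left out (33.1%), and 2 to 10 with 1 library left out (0.800% to 8.61%). For ethanol against control the count was also 4 with a pseudocount of 0.5 (3.98%), median-of-ratios scaling (4.10%) or no mean trend (3.96%). A filter at 5 CPM gave 2 (2.59%). For acetate against ethanol it was also 7 with a filter at 0.5 CPM (4.08%) or voom on recovered reads (3.78%). A filter at 5 CPM (2.81%) or no filter (2.42%) gave 5. Apart from Mmp2 and Mmp9 with ethanol, the replicate block alone changed no call among the 43 genes, while it changed calls in the other gene lists, as given with them. With the replicate block and acetate replicate 2 left out, the adjusted p of limma reached 6.7e-53 (Adamtsl1 with ethanol). So small a value cannot come from a single gene's own spread over these few libraries. The calls of that fit lean on the variance trend shared by genes, and its counts are to be read with that limit. Adam10 and Adam17, below 0 and not past the threshold for acetate against ethanol, were past it at 0.24 and 0.20 in that fit. Without acetate replicate 2 and with no block, both stood at 0.20 and did not pass (adjusted p = 0.23 and 0.20). The cause was not tested. Of the other values of named genes, 76 changed sign with neither value past the threshold. Low read numbers limit Mmp13, Mmp9 and the genes near 1 CPM.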
